A study of Schizosaccharomyces pombe with 16 samples.

Results

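Fission yeast (Schizosaccharomyces pombe) strains in which serine 2 (Ser2) of the altered repeats of the RNA polymerase II tail was alanine were set against strains in which Ser2 was kept. The Ser2-alanine side held the arrays titled S2A (4) and S2A/S7A (5), and the Ser2-intact side held those titled S7A (4) and S7E (3), so that all 16 of the 16 arrays of the series entered, 9 against 7. Both groups of a side had equal weight. Per the labels, every mutant strain carried 18 "rump" repeats followed by 14 altered repeats in Rpb1, the largest subunit of the polymerase, and its RNA was hybridised together with wild-type (WT) RNA on a 2-colour, splicing-sensitive Agilent array. Each replicate was a separate mid-log culture in YES, a rich medium. A value is the log2 ratio of mutant over WT, a base and a direction that are likely but that the sources do not state in words, and a gene's value is the mean of its exon probes. A difference is the Ser2-alanine side minus the Ser2-intact side on this log2 scale, with ± its standard error (SE).

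The tail, or C-terminal domain (CTD), consists of repeats of 7 residues that are phosphorylated and dephosphorylated as the polymerase moves along a gene. Phosphorylation of Ser2 rises during elongation and recruits factors for RNA processing and chromatin modification, and in fission yeast it is known for its part in switching on ste11, the master regulator of sexual differentiation. Ser7 is phosphorylated as well, and its role is less well defined. The altered repeats are shown because they define the contrast, with residues counted from 1 at the first letter.
S2A: YAPTSPS
S2A/S7A: YAPTSPA
S7A: YSPTSPA
S7E: YSPTSPE
Residue 2 was alanine in every group of the first side and serine in every group of the second. Residue 7 was not balanced: it was serine in S2A, alanine in S2A/S7A and S7A, and glutamate in S7E. No group of the Ser2-intact side kept both serines, so a change of residue 2 and the difference in residue 7 cannot be told apart in the contrast of the sides. Each gene was also tested in the 4 pairwise comparisons between a group of one side and a group of the other, because a side's mean can be carried by a single group. Of these comparisons only S2A/S7A against S7A kept residue 7 the same, as alanine in both groups. The others changed both residues. The alleles themselves were not checked on the array, because probe sequences were not used here.

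Genes differed between the sides in both directions. Of 5163 genes tested, 1066 (20.6%) were higher and 955 (18.5%) were lower on the Ser2-alanine side at a Benjamini-Hochberg adjusted p under 0.05 (limma), and 194 and 106 of these differed by at least 1.5-fold. The median difference over all genes was 0.00013. In all 4 pairwise comparisons and with 1 sign, 256 genes (4.96%) were higher and 164 (3.18%) lower. In S2A/S7A against S7A alone, where residue 7 was alanine in both groups, 1174 genes were higher and 972 lower. The 9 Ser2-alanine arrays all lay above the 7 Ser2-intact arrays for 219 genes (4.24%) and all below them for 152 (2.94%). With mutant RNA labelled by Cy5 on 7 arrays and by Cy3 on the other 9, separate fits called 225 genes higher and 386 lower in Cy5 and 1379 higher and 941 lower in Cy3. In all 4 comparisons 29 genes passed in Cy5 and 501 in Cy3, against 420 with both dyes together; S7E had a single Cy5 array, replicate 1. The groups of a side also differed from each other. S2A/S7A was higher than S2A for 619 genes and lower for 581, and S7E was higher than S7A for 1175 and lower for 1042. S7A replicate 4, S2A replicate 4 and S7E replicate 1 stood apart from their own groups (r across genes of at most 0.719). Without these 3 arrays 1441 genes were higher and 1061 lower. All 3 carried mutant RNA in Cy5, and without them S7E had no Cy5 array. Leaving them out is therefore not a check separate from the split by dye, and array and dye cannot be told apart here.

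**Figure D1:**
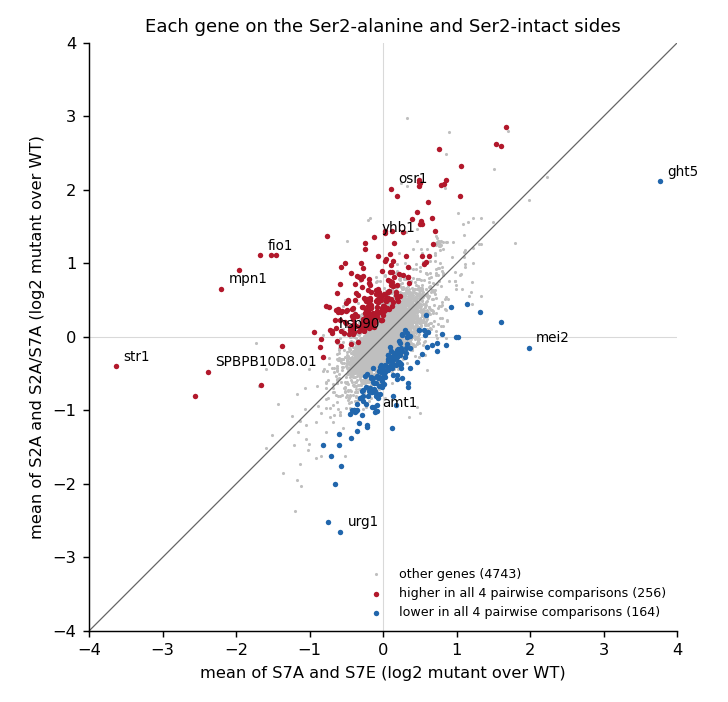
Each point is 1 of the 5163 genes, with the mean of the S7A and S7E group means on the x axis and the mean of the S2A and S2A/S7A group means on the y axis, both as log2 mutant over WT; the diagonal marks equal values on both sides. The 256 genes in red were higher and the 164 in blue lower in all 4 pairwise comparisons, and mpn1 and fio1 stand above WT on the y axis and below it on the x axis.

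The same difference arose from different positions relative to WT. Among the 256 genes higher in all 4 comparisons, 52 differed from WT in both Ser2-alanine groups and in neither Ser2-intact group, as sib1 and yhb1 did. For 14 the reverse held, as for str1 and hsp90. Another 31 lay above WT in both Ser2-alanine groups and below it in both Ser2-intact groups, among them fip1, fio1, mpn1 and gdt1. For 26 genes all 4 groups differed from WT the same way, and for 133 the groups followed none of these patterns. Among the 164 lower genes the corresponding numbers were 39 (amt1 and rip1 among them), 10, 11, 23 (ght5 and rsv1 among them) and 81. The mean of the Ser2-alanine side lay farther from WT than that of the Ser2-intact side for 178 of the 256 and for 122 of the 164. The same share over all genes was not worked out, so this need not be particular to these genes.

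Iron uptake genes were mostly higher on the Ser2-alanine side, and str1 and fip1 gave the largest differences of all genes tested. The siderophore-iron transporter gene str1 read -0.36, -0.67, -0.63 and -0.47 on the S2A arrays and -0.96, -1.02, 0.30, 0.07 and 0.27 on the S2A/S7A arrays. On the S7A arrays it read -4.46, -4.47, -4.68 and -3.31, and on the S7E arrays -3.05, -3.15 and -2.92. No array of one side overlapped the other, and the sides differed by 3.23 ± 0.23 (9.39-fold, adjusted p = 4.75e-08, limma). For fio1, the multicopper oxidase of reductive iron uptake, the S2A arrays held 0.94, 0.80, 0.89 and 1.20, the S2A/S7A arrays 1.13, 1.12, 1.59, 0.87 and 1.60, the S7A arrays -2.86, -2.20, -2.75 and -2.14, and the S7E arrays -0.98, -0.76 and -0.82. It was thus above WT on every Ser2-alanine array and below WT on every Ser2-intact array, with a difference of 2.78 ± 0.13 (adjusted p = 1.27e-09). Its partner, the iron permease gene fip1, lies next to it and differed by 2.86 ± 0.16 (adjusted p = 4.00e-09), with the same order of groups.

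The siderophore synthesis gene sib1 behaved otherwise. It read 1.02, 1.23, 1.24 and 0.87 in S2A and 1.13, 1.03, 0.76, 1.01 and 1.15 in S2A/S7A, against -0.04, 0.11, 0.06 and 0.11 in S7A and -0.18, 0.14 and 0.08 in S7E. Only the Ser2-alanine arrays were displaced from WT, and the sides differed by 1.02 ± 0.055 (adjusted p = 3.76e-09). The heme transporter gene str3 (1.81 ± 0.22), the vacuolar transporter gene abc3 (1.75 ± 0.22), the ferric reductase gene frp1 (1.65 ± 0.21) and shu1, for a cell-surface heme receptor (1.19 ± 0.19), were also higher on the Ser2-alanine side. So was php4 (0.57 ± 0.064), whose product represses iron-using genes when iron is scarce. The gene of the GATA repressor of iron uptake, fep1, differed by -0.11 ± 0.064 (adjusted p = 0.205). Of the 14 iron genes 11 were higher and 2 lower, against 20.6% and 18.5% of all genes. In all 4 comparisons 7 were higher, against 4.96% of all genes. The median difference was 1.11, with 1.00 in Cy5 and 1.19 in Cy3. The 2 lower members were sib3 (-0.15 ± 0.041) and str2 (-0.18 ± 0.061).

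**Figure D2:**
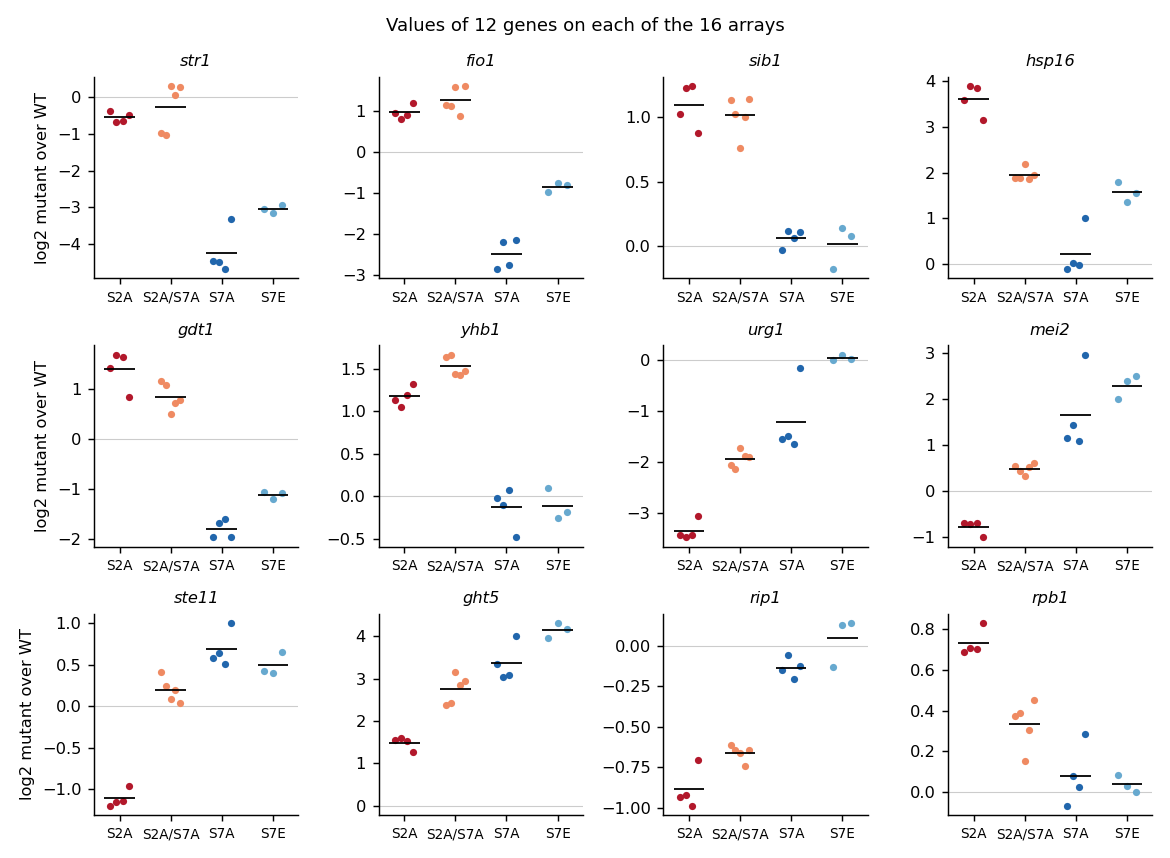
Values of 12 genes on each array as log2 mutant over WT (points, coloured by group) with the mean of each group (black line), for S2A (4 arrays), S2A/S7A (5), S7A (4) and S7E (3). The panels have separate y axes; str1, fio1, sib1, gdt1, yhb1, urg1, mei2 and rip1 show no overlap between the 9 Ser2-alanine and the 7 Ser2-intact arrays, while for hsp16 the S2A/S7A arrays lie only just above S7E replicate 1.

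Genes near the ends of chromosomes I and II, which the title of the series names, were mostly higher on the Ser2-alanine side. In the 50 kb next to these ends, as placed by the RefSeq annotation, 34 of 64 genes (53.1%) were higher and 3 (4.69%) lower, with a median difference of 0.43. In the next 50 kb these shares were 34.5% and 15.5% of 58 genes, and in the rest of chromosome I they were 20.1% and 18.9% of 2260. All 3 telomere-linked helicase genes were higher. The helicase gene tlh1 read 3.22, 3.15, 3.19 and 2.37 in S2A, 3.27, 3.24, 2.25, 2.36 and 2.45 in S2A/S7A, 1.64, 1.65, 1.49 and 1.60 in S7A, and 1.52, 1.86 and 1.84 in S7E. It was thus above WT in all 4 groups, and higher by a further 1.18 ± 0.17 on the Ser2-alanine side (adjusted p = 4.77e-05). Its near-identical copy tlh2 differed by 1.10, and these probes may share signal.

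Other outer genes fell into different patterns. The gene gdt1 read 1.42, 1.68, 1.63 and 0.84 in S2A and 1.16, 1.07, 0.49, 0.71 and 0.78 in S2A/S7A. It read -1.95, -1.68, -1.59 and -1.96 in S7A and -1.06, -1.20 and -1.07 in S7E, so it lay above WT on one side and below it on the other (2.58 ± 0.11, adjusted p = 4.81e-10). The group means of ftm4 were 2.27 in S2A, 1.92 in S2A/S7A, 1.29 in S7A and -0.31 in S7E, those of SPBPB2B2.18 were 2.05, 2.60, 0.90 and 1.23, and both were higher in all 4 comparisons. Among the inner genes, yhb1, for a nitric oxide dioxygenase, was higher by 1.47 ± 0.084 (adjusted p = 5.73e-09), with S7A and S7E means of -0.13 and -0.11. SPBPB10D8.01 was below WT in all 4 groups, at -0.60 in S2A and -0.36 in S2A/S7A against -1.73 in S7A and -3.04 in S7E. Of the outer genes 14 of 35 on chromosome I and 9 of 29 on chromosome II were higher in all 4 comparisons, and none was lower in all 4. The shares over all genes were 4.96% higher and 3.18% lower in all 4. Many of these genes belong to repeated families, and their probes were not checked for shared signal.

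**Figure D3:**
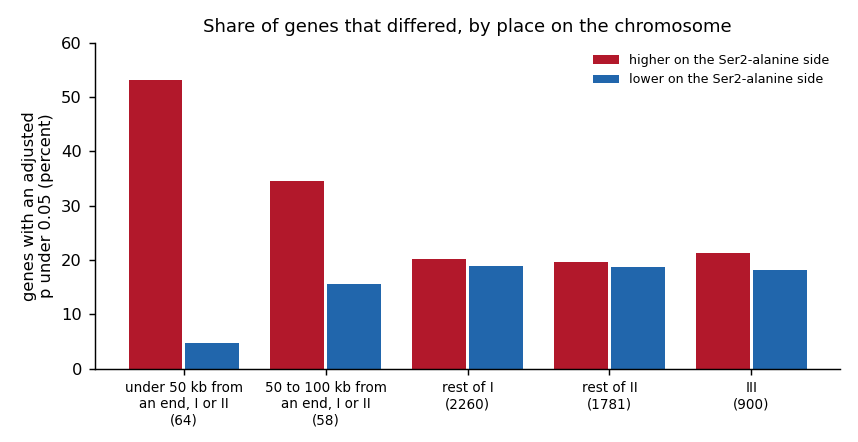
Share of genes that were higher (red) or lower (blue) on the Ser2-alanine side at an adjusted p under 0.05, by place on the chromosome, with the number of genes tested in parentheses. The share of higher genes is 53.1% in the outer 50 kb of chromosomes I and II, 34.5% in the next 50 kb and between 19.7% and 21.2% elsewhere.

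Many stress, chaperone and proteasome genes were also higher. The small heat shock protein gene hsp16 read 3.58, 3.88, 3.84 and 3.14 in S2A, 1.88, 1.88, 2.18, 1.86 and 1.94 in S2A/S7A, -0.11, 0.04, -0.02 and 1.00 in S7A, and 1.80, 1.36 and 1.55 in S7E. S2A stood above all other groups and S7E lay just below S2A/S7A, so that the difference of 1.88 ± 0.15 (adjusted p = 2.18e-07) did not pass in all 4 comparisons. The glutathione S-transferase gene gst2 (1.53 ± 0.13) and the pyridoxal reductase gene plr1 (1.31 ± 0.14) passed in all 4. The chaperone gene hsp90 differed by 0.74 ± 0.073 (adjusted p = 1.42e-06), with means of 0.066 in S2A and 0.024 in S2A/S7A against -0.46 in S7A and -0.94 in S7E. Over all genes the shares were 20.6% higher and 18.5% lower. Of 21 heat shock and chaperone genes 14 were higher and 1 was lower, with a median of 0.22. Of 25 stress genes 11 were higher and 2 lower, with a median of 0.29. In all 4 comparisons 2 of them were higher, as were 4.96% of all genes. The stress list's group medians were 0.62 in S2A, 0.18 in S2A/S7A, 0.13 in S7A and 0.31 in S7E, so S7E lay above S2A/S7A. Of 31 proteasome genes 18 were higher and none lower, with a median of 0.20. The proteasome members pup1 (0.49 ± 0.054) and pre8 (0.40 ± 0.062) were above WT in S2A, S2A/S7A and S7E and below it in S7A. Of the 31, 2 were higher in all 4 comparisons, near the share of 4.96% over all genes.

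The uracil-regulatable genes were lower on the Ser2-alanine side, all 4 of 4 and in all 4 comparisons, with a median difference of -1.48. The shares over all genes were 18.5% lower and 3.18% lower in all 4 comparisons. For urg1 the S2A arrays read -3.43, -3.49, -3.45 and -3.06 and the S2A/S7A arrays -2.07, -2.15, -1.72, -1.89 and -1.90. The S7A arrays read -1.56, -1.50, -1.64 and -0.15 and the S7E arrays -0.0016, 0.11 and 0.015. The groups followed each other in that order, and the sides differed by -2.07 ± 0.17 (4.21-fold, adjusted p = 1.89e-07). S7A replicate 4 was nearer to the S7E arrays than to its own group. The neighbouring genes urg2 (-1.77 ± 0.15) and urg3 (-1.18 ± 0.11) had the same order of group means, and so did uck2, for a uridine kinase (-1.01 ± 0.098).

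Nitrogen starvation genes and amino acid permeases were lower for 10 of 19 members and higher for 1, with a median of -0.24. The shares over all genes were 18.5% lower and 20.6% higher. The ammonium transporter gene amt1 had means of -1.26 in S2A, -0.80 in S2A/S7A, -0.19 in S7A and -0.017 in S7E and differed by -0.92 ± 0.099 (adjusted p = 3.33e-06). The oxygenase gene isp7 (-0.94 ± 0.115) was also lower in all 4 comparisons. The proline permease gene put4 differed by -0.77 ± 0.10, but its S7E mean of -1.60 lay close to the S2A/S7A mean of -1.77.

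Respiratory genes were mostly lower. Of 35 nuclear genes of the respiratory chain and ATP synthase 28 were lower and none higher, with a median of -0.38. In all 4 comparisons 8 were lower. The shares over all genes were 18.5% lower, 20.6% higher and 3.18% lower in all 4 comparisons. The Rieske protein gene rip1 read -0.93, -0.92, -0.99 and -0.70 in S2A and -0.61, -0.64, -0.66, -0.74 and -0.64 in S2A/S7A. It read -0.15, -0.059, -0.205 and -0.13 in S7A and -0.13, 0.13 and 0.14 in S7E, with no overlap of the sides (-0.73 ± 0.056, adjusted p = 1.14e-07). The cytochrome c1 gene cyt1 (-0.68 ± 0.060) and the cytochrome oxidase subunit gene cox4 (-0.56 ± 0.056) were lower in all 4 comparisons as well. Within the dye orientations the median of the list was -0.31 in Cy5 and -0.40 in Cy3.

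Most of the listed sugar transport and glucose-regulated genes were lower too. The high-affinity glucose transporter gene ght5 was above WT on every array, at 1.55, 1.61, 1.52 and 1.27 in S2A, 2.38, 2.42, 3.16, 2.84 and 2.94 in S2A/S7A, 3.34, 3.05, 3.08 and 4.00 in S7A, and 3.97, 4.32 and 4.17 in S7E. The S2A/S7A and S7A arrays overlapped slightly, and the sides differed by -1.65 ± 0.14 (adjusted p = 4.35e-07). Of 8 hexose transporter genes 6 were lower and none higher, with a median of -0.50. The shares over all genes were 18.5% lower and 20.6% higher. The members that passed in all 4 comparisons were ght5 and ght4 (-0.78 ± 0.10). Of 11 genes of glucose-repressed sugar use 7 were lower and 1, rst2, was higher (0.47 ± 0.056). In all 4 comparisons 2 were lower, against 3.18% of all genes. The gene mal1 was lower in the contrast of the sides (-0.52 ± 0.058), but its S7E mean of -1.61 lay below the S2A/S7A mean of -1.14. The zinc-finger repressor gene scr1, whose product acts in glucose repression, differed by -0.99 ± 0.092 and the zinc-finger gene rsv1, which is not on that list, by -0.98 ± 0.067. The fructose bisphosphatase gene fbp1, a usual marker of glucose derepression, differed by 0.06 ± 0.070 (adjusted p = 0.51).

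In sexual differentiation S2A stood apart from S2A/S7A. The transcription factor gene ste11 read -1.20, -1.16, -1.14 and -0.96 in S2A, but 0.42, 0.25, 0.086, 0.19 and 0.044 in S2A/S7A. It read 0.59, 0.65, 0.51 and 1.01 in S7A and 0.43, 0.40 and 0.65 in S7E, so only S2A lay below WT. The contrast of the sides was -1.05 ± 0.080 (adjusted p = 1.12e-07), and ste11 did not pass in all 4 pairwise comparisons. The meiotic inducer gene mei2, which encodes an RNA-binding protein, did pass. It read -0.70, -0.72, -0.69 and -1.01 in S2A, 0.54, 0.44, 0.31, 0.51 and 0.61 in S2A/S7A, 1.16, 1.43, 1.09 and 2.97 in S7A, and 1.99, 2.39 and 2.49 in S7E (-2.13 ± 0.22, adjusted p = 1.99e-06). The gene gpa1, for the G protein alpha subunit of pheromone signalling, was lower in all 4 comparisons as well (-1.10 ± 0.082).

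Of 15 genes of Ste11 and sexual differentiation 7 were lower and 4 higher. Of 12 M-cell mating genes 6 were lower and none passed in all 4 comparisons, in which 3.18% of all genes were lower. Of the 6, 5 were lowest in S2A and mam1 in S2A/S7A. For example, mat1-Mc, for an M-specific transcription factor, had a mean of -2.49 in S2A and of 0.58, 0.29 and 0.62 in S2A/S7A, S7A and S7E. The means of mat3-Mc, also among the 6, were -2.61, 0.54, 0.31 and 0.70 in the same order, and the probes of these copies may share signal. The pheromone gene mfm2 had -2.56 against 0.38, 0.52 and 0.18. The other pheromone genes, mfm1 (0.22, adjusted p = 0.122) and mfm3 (0.26, adjusted p = 0.110), did not pass and were lowest in S7A. Without the 3 arrays that stood apart, 6 M-cell genes were lower and 5 higher. Over all genes 20.6% were higher and 18.5% lower, and leaving out those arrays raised the numbers from 1066 and 955 to 1441 and 1061. Among targets of Mmi1, which removes meiotic transcripts during growth, 2 of 11 were higher and 1 lower, or 5 and 1 without the same 3 arrays. Of these ssm4 differed by 1.04 ± 0.054 (adjusted p = 2.98e-09), and mei4 by 0.03 ± 0.045 (adjusted p = 0.64).

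The exon value of rpb1, the gene that carries the altered tail, was higher in the Ser2-alanine strains. It read 0.69, 0.71, 0.70 and 0.83 in S2A, 0.37, 0.39, 0.15, 0.31 and 0.45 in S2A/S7A, -0.066, 0.078, 0.024 and 0.29 in S7A, and 0.087, 0.031 and 0.0024 in S7E. The sides overlapped through S2A/S7A replicate 3 and S7A replicate 4, and the difference of 0.47 ± 0.059 (adjusted p = 1.42e-05) passed in all 4 comparisons. Averages over the junction and the intron probes of rpb1, 6 of each, differed by 0.12 and 0.039. The junction averages were 0.39 in S2A, 0.64 in S2A/S7A, 0.079 in S7A and 0.72 in S7E, so S7E lay highest. The higher value on the Ser2-alanine side therefore rests on the exon value. Of 27 genes of CTD kinases, phosphatases and elongation factors 5 were higher and 4 lower, with a median of 0.034. Over all genes the shares were 20.6% higher and 18.5% lower. The lower ones included tpr1, for a subunit of the Paf1 elongation complex (-0.43 ± 0.056, lower in all 4), and mcs6, for the CTD kinase of TFIIH (-0.32 ± 0.054). Of 22 heterochromatin and RNAi genes 5 were higher and 1 lower. The RNA-dependent RNA polymerase gene rdp1 had means of 0.38 in S2A and 0.31 in S2A/S7A against -0.82 in S7A and -0.295 in S7E, and differed by 0.91 ± 0.0595 (adjusted p = 4.75e-08).

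The acid phosphatase gene pho1 varied widely among the groups without a difference between the sides that passed the test (-0.07 ± 0.16, adjusted p = 0.755). Its values were 0.91, 0.90, 0.98 and 0.26 in S2A, 2.32, 2.09, 1.33, 1.38 and 1.69 in S2A/S7A, 2.75, 2.49, 2.23 and 2.00 in S7A, and 0.39, 0.22 and 0.31 in S7E. The arrays of S2A/S7A and S7A, which share alanine at residue 7, all lay above those of S2A and S7E. Of 9 phosphate genes 3 were higher and 2 lower, against 20.6% and 18.5% of all genes. The gene prt2 was higher by 1.21 ± 0.065 in all 4 comparisons, and pho84, for a phosphate transporter, was lower (-0.57 ± 0.10), with an S7A mean of 1.01 against 0.22 in S7E. None of 6 genes often used as strain markers passed the test (ura4, leu1, ade6, his7, arg3 and lys1, from -0.26 for ura4 to 0.085 for arg3). One array stood out in a pair of them: S7E replicate 1 read 1.91 for ura4 and 1.82 for his7, while the other S7E arrays lay between -0.22 and 0.039. In Cy5 alone, where it is the only S7E array, ura4 differed by -0.90 (adjusted p = 0.0055) and his7 by -0.82 (adjusted p = 0.0038). Without the 3 arrays that stood apart the differences were 0.12 (adjusted p = 0.114) and 0.094 (adjusted p = 0.143). At an unadjusted p under 0.05 the dye by side interaction held 252 genes, and 0 after adjustment (limma).

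**Figure D4:**
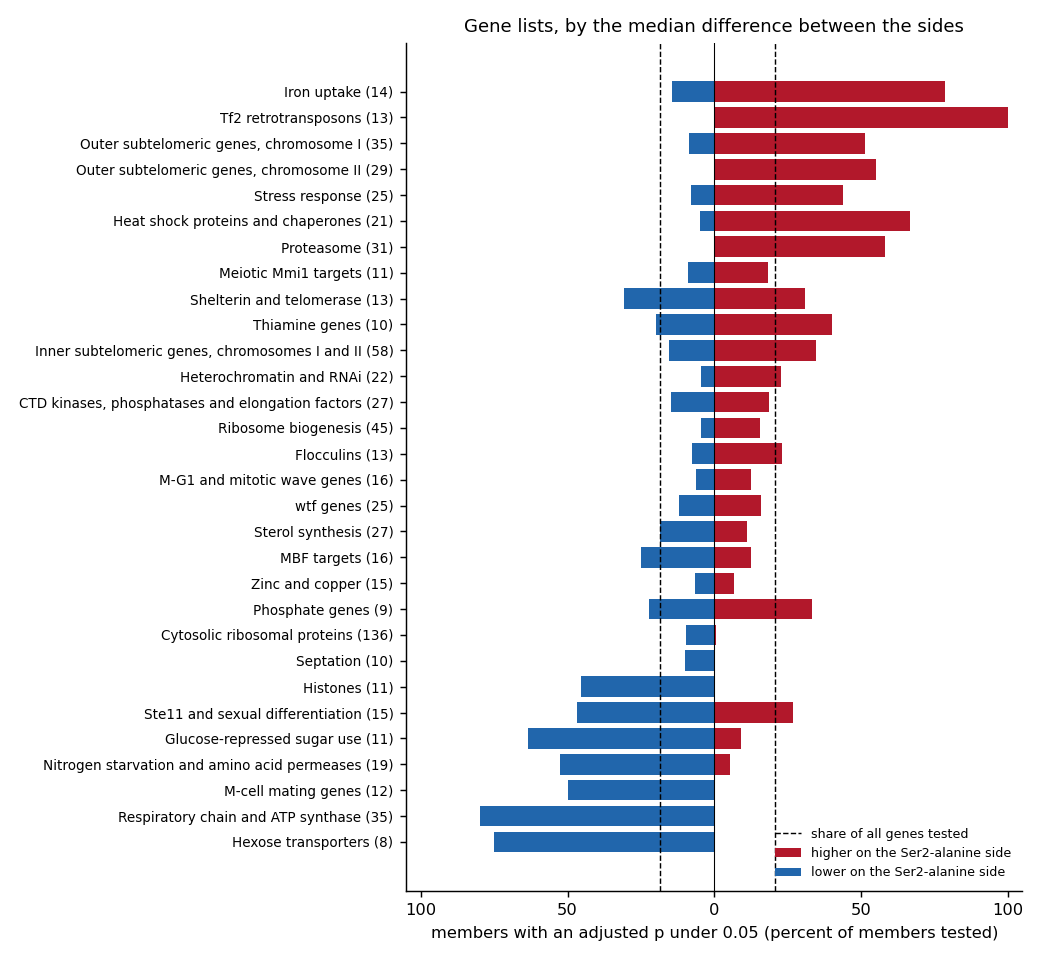
For each gene list with at least 8 genes tested (number in parentheses), the percent of members that were higher (red, right) or lower (blue, left) on the Ser2-alanine side at an adjusted p under 0.05, ordered by the median difference. Dashed lines mark the shares over all genes, 20.6% higher and 18.5% lower; iron uptake and the outer subtelomeric genes lie beyond the right line, and respiratory and hexose transporter genes beyond the left one.

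All 13 Tf2 retrotransposons were higher, with a median of 0.52, but none in all 4 comparisons: the list medians were 0.69 in S2A, 1.84 in S2A/S7A, 0.29 in S7A and 1.24 in S7E, so all 4 medians lay above WT and that of S7E lay above that of S2A. These elements are near-identical copies, and their probes cannot be read as separate genes. Over all genes tested 20.6% were higher and 18.5% lower, and a list near these shares is not set apart by its counts. Of 136 ribosomal protein genes 13 were lower and 1 was higher, and 28 were lower without the 3 arrays that stood apart. Of 11 histone genes 5 were lower, with a median of -0.16, which was -0.17 in Cy5 and -0.018 in Cy3. None passed in all 4 comparisons. The list medians were -0.088 in S2A, 0.0015 in S2A/S7A, -0.062 in S7A and 0.30 in S7E, so only S7E lay clearly above WT. Higher and lower members numbered 7 and 2 of 45 for ribosome biogenesis, 2 and 4 of 16 for targets of MBF, the factor of the G1-S wave, 2 and 1 of 16 for M-G1 genes, 4 and 2 of 10 for thiamine genes and 3 and 5 of 27 for sterol synthesis. They numbered 4 and 4 of 13 for shelterin and telomerase, 4 and 3 of 25 for wtf genes, 3 and 1 of 13 for flocculins, 1 and 1 of 15 for zinc and copper genes, 2 and 2 of 5 for P-cell mating genes, and 0 and 1 of 10 for septation. Without the 3 arrays that stood apart, the numbers became 13 and 2 for ribosome biogenesis, 4 and 4 for MBF targets, 8 and 5 for sterol synthesis, 9 and 3 for wtf genes, 3 and 3 for zinc and copper genes and 1 and 2 for septation. For heterochromatin and RNAi they became 8 and 3, and for CTD kinases, phosphatases and elongation factors 8 and 4. Over all genes the same step raised the numbers from 1066 and 955 to 1441 and 1061. The changes in the lists were not tested against that rise.

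Genes that differed in all 4 comparisons lay side by side at several places. There were 11 runs of 3 or 4 neighbouring genes with 1 direction, named here after their values were seen. How many runs would arise with such genes placed at random was not tested. The iron genes fip1 and fio1 formed such a run with hsp3105, and plr1 with abc1 and wos2. The genes urg2, urg3 and urg1 were a run of lower genes. On chromosome III, osr1, SPCC663.07c and SPCC663.08c were higher by 1.45 to 1.91. The gene osr1 read 2.75, 2.65, 2.73 and 2.06 in S2A and 1.41, 1.49, 1.42, 1.48 and 1.58 in S2A/S7A, against 0.37, 0.43, 0.45 and 0.32 in S7A and -0.21, -0.20 and -0.12 in S7E. The means of SPCC663.08c were close to these, at 2.45, 1.39, 0.49 and -0.12 in the same order of groups. The probes of this run were not checked for shared signal. SPAC212.06c to SPAC212.03 and SPBPB2B2.06c to pan5 were runs of 4 higher genes near chromosome ends.

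Of the 12 genes that were highest among those without overlap, nrg1 (2.12 ± 0.19), SPAPB18E9.04c (2.64 ± 0.14) and SPAC27D7.09c (1.80 ± 0.21) belong to no group above, except that nrg1 is one of the inner subtelomeric genes. SPAC27D7.09c was driven by S2A, where it read 3.21, 3.11, 3.04 and 1.38, while the S2A/S7A arrays lay between 0.27 and 0.63. Of the 12 lowest, SPAC11D3.17 and SPAC1039.01 both differed by -1.35 (± 0.10 each). The replication gene psf3, for a subunit of the GINS complex, read -1.69, -1.66, -1.57 and -1.62 in S2A, -0.66, -0.86, -0.67, -0.74 and -0.93 in S2A/S7A, 0.040, 0.066, 0.013 and -0.115 in S7A, and -0.49, -0.54 and -0.29 in S7E (-0.98 ± 0.055, adjusted p = 5.69e-09). Its junction probes gave the same difference, -0.98. SPCC61.05 (-1.02 ± 0.086) was lowest in S2A/S7A, and SPAC24B11.05 (-0.98 ± 0.067) was near WT on the Ser2-alanine arrays and above it on all Ser2-intact arrays.

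For a few genes the kinds of probe gave different pictures. The exon probe of mpn1, for an exonuclease that trims U6 RNA, read 1.11, 1.14, 1.21 and 0.98 in S2A, 0.17, 0.19, -0.043, 0.41 and 0.27 in S2A/S7A, -2.47, -2.53, -2.49 and -2.32 in S7A, and -1.94, -1.84 and -2.09 in S7E (2.86 ± 0.065, adjusted p = 2.36e-13). Its 4 intron probes differed by 3.12 and its 4 junction probes by 1.78 on average. By contrast, the exon probes of mug62 and cdd1 were high in S2A alone (5.74 and 4.11), while their junction probes averaged 0.62 and 0.12 there. The contrasts of mug62 (2.65) and cdd1 (1.74) therefore rest on the exon probe in 1 group, and the cause was not tested.

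Splicing was measured as an intron, junction or exon-skipping probe minus the mean exon probe of its gene. Such a value also moves when the exon changes and the other probe does not. In cox4, for example, the intron probe itself differed by -0.0026 and the exon by -0.56. The counts that follow therefore need not mean changed splicing. Of 4445 introns, 702 (15.8%) were higher relative to their exons on the Ser2-alanine side and 338 (7.6%) lower. With each array centred on its own median, 618 were higher and 518 lower, so the excess of higher introns depends on how the arrays are centred. Of 4429 junctions of adjacent exons 144 (3.25%) were higher and 300 (6.77%) lower, or 188 and 250 after centring. Of 371 exon-skipping junctions 10 (2.7%) were higher and 45 (12.1%) lower, or 17 and 21 after centring. The array medians of the exon-skipping probes ran from 0.20 to 0.28 in S7A and from -0.000086 to 0.13 on the Ser2-alanine arrays, and in S7E they were 0.39 for replicate 1 and 0.025 and 0.018 for the other replicates. By position, 19.3% of the introns of single-intron genes were higher and 7.59% lower, against 16.8% and 9.04% of first introns and 13.7% and 6.91% of later introns in genes with several. After centring, 180 were higher and 104 lower in single-intron genes, 166 and 147 among first introns and 272 and 267 among later ones. The difference between positions was not tested. Where a gene had both kinds tested (2071 genes), 37 had a higher intron together with a lower junction, which is 7.69% of the 481 genes with a higher intron and 20.7% of the 179 with a lower junction. Over all 2071 genes 23.2% had a higher intron and 8.64% a lower junction, so neither share exceeded that over all genes. The intron and junction values of a gene have the same exon mean subtracted, which moves both the same way. This overlap therefore cannot show whether higher introns went with lower junctions.

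**Figure D5:**
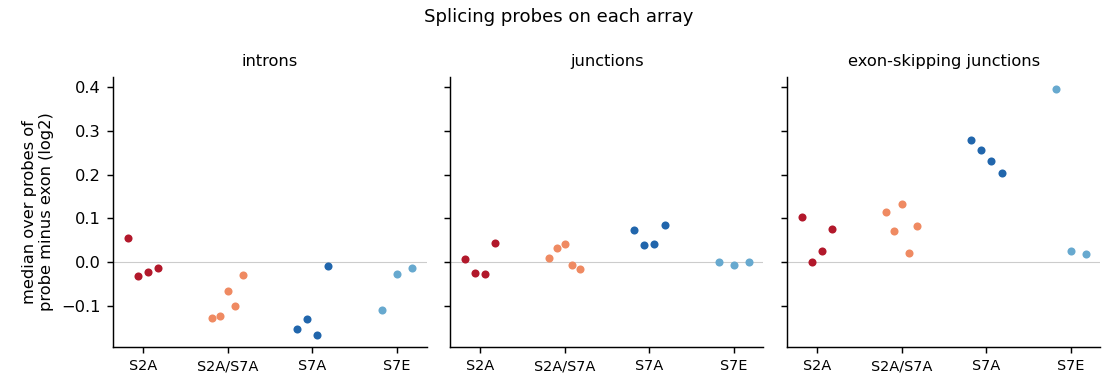
Each point is 1 array, giving the median over all probes of the probe minus the mean exon probe of its gene (log2), for introns, junctions of adjacent exons and exon-skipping junctions, by group. Exon-skipping medians of the 4 S7A arrays lie between 0.20 and 0.28, and S7E replicate 1 stands at 0.39, away from the other S7E arrays.

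The individual introns that differed most had unlike group patterns. The intron of atp14, for an ATP synthase subunit, stood relative to its exons at 1.65 in S2A and 1.88 in S2A/S7A against 0.20 in S7A and 0.19 in S7E (1.58 ± 0.13, adjusted p = 1.46e-07, limma), while its exons differed by -0.53. The first intron of sec1 stood at 0.81 and 0.24 against -0.89 and -1.01 (1.48 ± 0.10), and that of ppm1 at 0.095 and -0.57 against -2.06 and -1.37 (1.47 ± 0.099). For tcg1 the intron was high in S2A alone, at 3.10. Among lower introns, the third of tfg1, for a TFIIF subunit, stood at -0.58 and -0.66 against 0.70 and 0.19, where the exon probe itself was higher in the Ser2-alanine groups.

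The junction of exons 4 and 5 of rec8, for the meiotic cohesin and a target of Mmi1, gave the highest junction difference (2.65 ± 0.15, adjusted p = 4.21e-08). It stood at 1.28 in S2A and 0.89 in S2A/S7A against -1.92 in S7A and -1.23 in S7E, while the exons of rec8 differed by -0.06 (adjusted p = 0.50). The junction of hrq1 (1.16 ± 0.076) was also higher in both Ser2-alanine groups, at 1.33 and 1.19 against -0.14 and 0.33. That of aim19 was high in S2A/S7A alone (3.14) and that of lig4 in S2A alone (2.48). The lowest junctions were those of mpn1 and cdd1, whose exon probes differed as given above. Among exon-skipping junctions lig4 differed by 1.501 ± 0.085 and loc1 by 0.96 ± 0.15, and clr6 by 1.00 ± 0.083 with -1.45 in S7E and between 0.002 and 0.43 in the other groups.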

How the data were processed

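RNA of 4 CTD mutants was compared with WT RNA on 16 two-colour Agilent arrays. The authors deposited 1 value per probe and array, taken as log2 of mutant over WT (15207 probes, 11445 missing values); their normalization, and whether arrays shared WT RNA, are not given in the sources used here. Array medians lay between -0.0265 and 0.0267. Most genes rest on 1 exon probe (28 have several), and the number of arrays limits the precision. Replicates were separately grown, per the labels' protocols.

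limma 3.58.1 in R 4.3.3 fitted 4 group means and a dye term to genes measured on 2 or more arrays in each group, with two-sided tests and Benjamini-Hochberg adjustment over all features of a kind. The fit was tested on simulated data. Gene names and order came from RefSeq annotation, which matched 5094 of 5195 IDs. The members of the contrast, the gene lists and the tests were chosen with earlier results of these data known. Named genes are the 12 highest and 12 lowest without overlap of the sides, the 3 with the smallest p in each list, the 4 highest and 4 lowest splicing features of each kind, and rpb1, ste11, pho1, tlh1, tlh2 and the strain markers; other names were chosen after their values were seen. Same-numbered arrays deviated together in 8 of 21 pairs (r over 0.1, at most 0.419). Numbers were not taken as pairs, and whether same-numbered arrays shared a batch was not tested. Alternatives changed the scaling, array weights, filters, dye handling, probes per gene and arrays left out. Promoter and protein sequences were not used here.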

Additional observations from a re-analysis of the deposited data

Results flagged for a closer look

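Among the genes with the largest differences and those always reported, 102 gene-group sets of 4 or 5 arrays were screened for 1 array far from the rest of its group, and 19 were found. Chance gives about 1 in 20 such sets where the sets are separate, but these sets share the same arrays. Of the 19, 11 were S2A replicate 4, 7 were S7A replicate 4 and 1 was S2A/S7A replicate 3. On S7A replicate 4, 6 of the 7 values lay nearer to WT than the rest of the group, and that of hsp16 lay farther: str1 (-3.313), fip1 (-1.704), str3 (-1.529), nrg1 (-0.669), urg1 (-0.153), uck2 (0.151) and hsp16 (0.999). On S2A replicate 4, values were closer to WT for osr1 (2.061), SPAC27D7.09c (1.378), urg1 (-3.061), SPAC1039.01 (-2.156), str3 (-0.515), pho1 (0.256), tlh1 (2.372) and tlh2 (2.316). They were farther from WT for SPAPB18E9.04c (1.792), mei2 (-1.014) and rpb1 (0.831). On S2A/S7A replicate 3, hsp16 read 2.185. No cause was tested.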

How the results depend on the processing

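In the alternative with every array of a side weighted equally, the fit also dropped the group means. Differences between the groups of a side then entered the spread, so its counts do not show the weighting alone. Counts of genes past the threshold (2021) stayed within 1.5 times under most alternatives, and leaving out 1 array gave 1801 to 2243. They moved to 3175 with array weights, 1220 with every array of a side weighted equally and 611 with the 7 Cy5 arrays alone, of which 225 were higher and 386 lower (36.8% higher against 52.7% in the full set). Genes called in all 4 comparisons (420; 342 to 486 without 1 array) moved to 754 with array weights and 29 in Cy5 alone. Introns (1040; 839 to 1103) moved to 1752 with array weights, 566 with equally weighted arrays and 400 in Cy5 alone. Junctions (444; 349 to 607) moved to 955 with array weights and 699 without the 3 arrays that stood apart. In Cy5 alone 49.1% of called junctions were higher, against 32.4%. Exon-skipping junctions were least stable (55; 34 to 69 without 1 array, with 34 without S7A replicate 2 or 3, 35 without S2A replicate 3 and 36 without S2A/S7A replicate 2 or 3): 92 with arrays scaled to equal spread, 142 with array weights, 24 with the replicate block, 30 with equally weighted arrays, 136 in Cy5, 107 in Cy3 and 101 without the 3 arrays. The causes were not tested, and the array weights did not fully converge. With the replicate number as a block, 1970 genes and 386 in all 4 comparisons passed. The main fit did not take the numbers as pairs. A trended spread, chosen after seeing the data, gave 2016 genes. Of 109 named genes past the threshold, 3 lost it without some single array (klp5, ssp1 and cuf1), 43 in Cy5 alone and 22 with equally weighted arrays. With all probes of a gene averaged, klp8 turned from -0.19 to 0.177.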
